A study of Homo sapiens with 6 samples.

Results

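CD209 and 9 further C-type lectins of myeloid cells were followed in THP-1, a human line grown from a monocytic leukaemia with an MLL-AF9 fusion gene. The 10 genes were CD209, CLEC2B, CLEC2D, CLEC4A, CLEC4E, CLEC5A, CLEC7A, CLEC11A, CLEC12A and MRC1, found in the deposited tables by Ensembl identifier with the version dropped, and they make up 10 of 78652 genes. PTX4-OE cells had been stably transduced with a construct that overexpresses PTX4, and EV cells with the empty vector. There were 3 biological replicates per group with numbers 1 to 3, and all libraries carry batch 1 in the labels, which do not give the promoter of the construct or say whether the lines are clones. Messenger RNA with poly(A) tails was sequenced in read pairs, and the labels name no stimulus. The comparison addressed here is which of these lectins differ in RNA level between PTX4-OE and EV cells.

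C-type lectins share a carbohydrate-recognition fold that in its classical form binds sugars with the help of calcium. On myeloid cells many serve as receptors that take up glycosylated microbes or signal through adaptor proteins with tyrosine motifs, while a few are secreted or recognise proteins. CD209 (DC-SIGN) binds high-mannose and fucosylated glycans, including those of ICAM3 and of many viruses, and is best known on dendritic cells and on macrophages of an alternative type, where IL-4 induces it together with the mannose receptor MRC1. PTX4 encodes pentraxin 4, a soluble protein of the family of C-reactive protein.

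In short, CD209 and CLEC11A were the abundant lectin transcripts of these cells, CLEC2D was low but measurable, and the other 7 lectins stayed below 1 TPM (transcripts per 1000000, scaled for length) in all 6 libraries. CD209 in PTX4-OE was 0.773 times its level in EV cells by the paired fit and lower in all 3 pairs of same-numbered libraries. It passed the test when libraries were paired by replicate number (adjusted p = 0.00798, edgeR's quasi-likelihood fit with Benjamini-Hochberg adjustment over all genes) and did not pass it unpaired. CLEC11A, a secreted growth factor, did not pass either way. The 95% interval of its fold was 0.907 to 1.05 paired, within 10%, and 0.742 to 1.29 unpaired.

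The total expected count per library ran from 31078642 to 37718207 in PTX4-OE and from 29670641 to 32691577 in EV. PTX4 itself had 24633, 14398 and 15782 counts in PTX4-OE replicates 1, 2 and 3, against 0, 3 and 4 counts in EV replicates 1, 2 and 3, which is the pattern its labels give. The mitochondrially encoded share of counts was 2.79%, 5.39% and 4.97% in PTX4-OE and 4.75%, 5.91% and 5.51% in EV, lower in each PTX4-OE library than in the EV library of its number. Of 12 monocyte markers, 5 reached 1 TPM in every library. CD33 among them was at 36.15 TPM or more, whereas FCN1 was listed at 0 in all 6 and CD14 reached at most 1.83 TPM. Of 12 macrophage markers, 2 reached 1 TPM in every library. CD68 was at 102.41 TPM or more, whereas CD163, MSR1 and FOLR2 did not exceed 0.14 TPM. Of 12 dendritic cell markers, 4 reached 1 TPM in every library. The lowest values were 55.14 TPM for FSCN1, 13.81 for BATF3, 1.91 for FLT3 and 1.38 for CD83. Of the others, CD1A, FCER1A and CLEC9A were listed at 0 in all 6 libraries, and CD1C and CLEC10A did not exceed 0.08 TPM. The T cell genes CD3D, CD3E and CD3G were at 0 as well, whereas TRAC had 2.29 to 3.27 TPM in PTX4-OE and 1.73 to 2.98 TPM in EV. Of 6 NK cell markers, 2 reached 1 TPM in every library. NCAM1 had 42.19 to 51.35 TPM in PTX4-OE and 38.98 to 45.39 TPM in EV, and NKG7 had 18.93 to 24.33 and 25.29 to 27.05 TPM.

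CD209 (ENSG00000090659.18) lies on chromosome 19 at 7739993 to 7747564 on the minus strand of GRCh38, in a cluster with its near copy CLEC4M and with CLEC4G and FCER2. CLEC11A (ENSG00000105472.14) lies on the other arm of the same chromosome at 50723364 to 50725708, plus strand. Because CD209 and FCER2 are the lectins that passed the paired test and CLEC11A is the most abundant of the 10, the 250 bases before the RefSeq start of each are shown (RefSeq, GRCh38.p14, 5′ to 3′ on the gene's strand). They are chr19:7747535-7747784 on the minus strand for CD209, chr19:7702132-7702381 on the minus strand for FCER2 and chr19:50723114-50723363 on the plus strand for CLEC11A. Capitals mark matches to any of 6 motifs searched on both strands, AGGAAGT (the core bound by ETS factors such as PU.1), GGGCGG (the GC box), TATAAA (the TATA box), CCAAT (the CCAAT box), TGACTCA (the AP-1 site) and the STAT6 site (TTC and GAA with any 4 bases between). ACTTCCT is AGGAAGT read on the other strand.
CD209: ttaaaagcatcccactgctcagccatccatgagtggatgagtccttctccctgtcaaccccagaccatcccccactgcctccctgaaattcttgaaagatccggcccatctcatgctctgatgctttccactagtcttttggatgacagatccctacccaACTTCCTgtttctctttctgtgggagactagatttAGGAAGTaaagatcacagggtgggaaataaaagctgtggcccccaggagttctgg
FCER2: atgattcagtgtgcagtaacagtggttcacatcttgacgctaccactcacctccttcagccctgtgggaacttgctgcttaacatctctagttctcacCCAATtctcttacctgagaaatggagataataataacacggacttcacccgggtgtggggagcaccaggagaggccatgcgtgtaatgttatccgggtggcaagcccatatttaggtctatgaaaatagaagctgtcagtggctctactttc
CLEC11A: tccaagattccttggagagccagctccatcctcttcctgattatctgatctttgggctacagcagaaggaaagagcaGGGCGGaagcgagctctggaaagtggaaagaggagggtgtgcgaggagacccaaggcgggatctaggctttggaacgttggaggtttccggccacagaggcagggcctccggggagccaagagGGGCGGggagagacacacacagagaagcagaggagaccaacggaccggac

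The CD209 window held 2 AGGAAGT matches, at 90 to 84 bases before the start on the opposite strand and at 55 to 49 bases before it on the gene's strand. The CLEC11A window held 2 GC boxes and the FCER2 window 1 CCAAT box. Of all 35116 RefSeq promoter windows of that length, 7.01% held AGGAAGT, 42.6% held GGGCGG and 32.0% held CCAAT, and the TATA box, the AP-1 site and the STAT6 site, which occurred in 10.7%, 4.2% and 5.38%, had no match in these 3. The CD209 window had 1 CG dinucleotide and 49.6% G or C, that of FCER2 5 and 47.6%, and that of CLEC11A 10 and 58.8%, beside medians of 11 and 58.0% over all windows. Among the other lectins with a window in the table, AGGAAGT was found in CLEC5A (1 match) and CLEC4E (2 matches), and not in CLEC2D or CLEC12A. A match describes the letters and does not show a bound site.

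CLEC4M, which encodes the liver and lymph node homologue of CD209 (DC-SIGNR), had 5, 3 and 3 counts in PTX4-OE and 6, 3 and 2 counts in EV, beside 3099 or more for CD209 in every library. Its window (chr19:7762993-7763242, plus strand) aligned with that of CD209 over 251 columns, of which 206 were identical and 43 were substitutions. Both AGGAAGT matches of CD209 carry 1 substitution in CLEC4M, A161G and G198A, with positions counted from 1 at the 5′ end of the CD209 window. The stretches around them are set side by side here, with the motif positions in capitals.
CD209: cctacccaACTTCCTgtttctct
CLEC4M: cttacccaGCTTCCTgtttgtct
CD209: ctagatttAGGAAGTaaagatca
CLEC4M: gtagatttAGAAAGTgaggatca

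CD209 was measured from 5667, 3099 and 4087 expected counts in PTX4-OE replicates 1, 2 and 3, and from 5946, 4219 and 4472 in EV replicates 1, 2 and 3. As length-scaled levels this was 53.3, 34.3 and 37.2 TPM in PTX4-OE (41.6 ± 10.3, SD, n = 3), against 62.0, 46.1 and 45.2 TPM in EV (51.1 ± 9.46, SD, n = 3). Replicate 1 was the highest library of both groups, and PTX4-OE replicate 1 lay above EV replicates 2 and 3, so the groups overlap. In CPM, counts per 1000000 scaled by TMM, the ratio of PTX4-OE to EV was 0.839, 0.692 and 0.792 in pairs 1, 2 and 3. Each PTX4-OE library was thus below its EV partner, which held for 14.2% of the 17625 genes tested.

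With the replicate number as a block, the log2 fold change of CD209 was -0.37 ± 0.055 (SE, 95% interval -0.49 to -0.25), a fold of 0.773 (0.713 to 0.839), with an adjusted p of 0.00798 by edgeR. Without the block it was -0.36 ± 0.215 (SE, 95% interval -0.87 to 0.15), with an adjusted p of 1.0. CD209 was therefore the 1 of 4 tested lectins that fell in PTX4-OE with pairs, where 0.238% of all genes tested were called lower and 0.0284% higher. It ranked 11 by p among all genes. With pairs DESeq2 and limma-voom also called CD209 and no other lectin, where they called 0.182% and 0.301% of all genes lower. Without pairs edgeR called 0 of the 4, and 0 of the 4 had an unadjusted p under 0.05, where 0.0% of all genes were called lower and 0.00567% higher at the adjusted threshold, and 0.505% lower at the unadjusted one. DESeq2 and limma-voom without pairs also called 0 of the 4, where they called 0.0113% and 0.0% of all genes lower. The paired call of CD209 rests on pair 2, which had the largest difference: without it the value was -0.29 with an adjusted p of 0.104. The partners of pair 2 had the lowest correlation of deviations from their group means (0.130). Their chi-square per degree of freedom (6.53) was nevertheless the smallest of any 2 libraries. The same measure did not single out pair 1. EV replicate 1 was nearer to EV replicate 2 (12.261) and to PTX4-OE replicate 2 (16.787) than to PTX4-OE replicate 1 (18.977). PTX4-OE replicate 1 was itself nearest to EV replicate 1, and the partners of pair 3 were nearest to each other (7.611). The limma fits on log2(TPM + 1) and log2(TPM + 0.1) with the block gave -0.30 and -0.31, with adjusted p of 0.428 and 0.439.

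**Figure D1:**
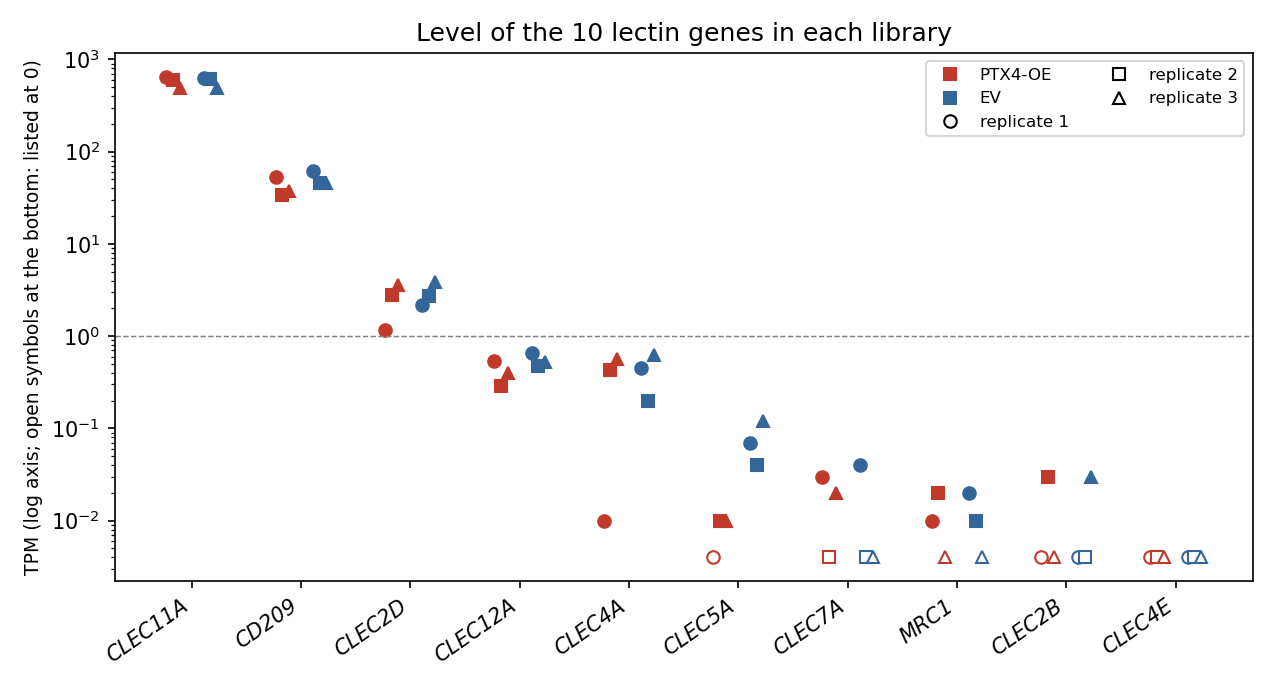
Deposited TPM of the 10 lectins in each library on a log axis, PTX4-OE left of EV, with symbols for libraries and open symbols at the bottom for values listed at 0. CLEC11A lies between 495.0 and 643.9 TPM and CD209 between 34.27 and 62.03 TPM in all libraries, with overlapping groups, while 7 lectins stay below 1 TPM.

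**Figure D2:**
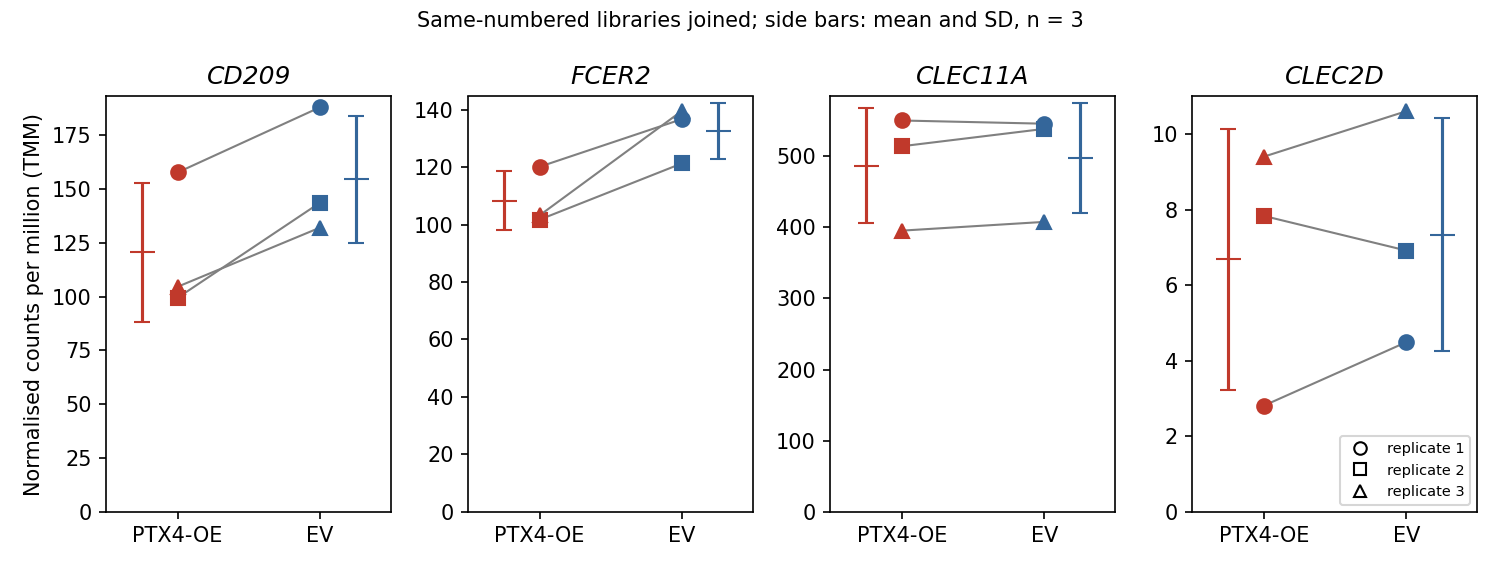
TMM-scaled CPM (from 0) of CD209, its neighbour FCER2, CLEC11A and CLEC2D, with points for libraries, a line joining libraries of the same replicate number and side bars for the mean and SD (n = 3), PTX4-OE left of EV. CD209 is lower in PTX4-OE along all 3 lines, while the lines of CLEC2D run in different directions.

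Signs of RNA quality and markers of other cell types were set beside the CD209 result. With mitochondrially encoded genes left out before scaling, its paired log2 fold change was -0.37 with an adjusted p of 0.00662 by edgeR. Leaving them out changes the scaling only and does not test RNA quality. The 13 mitochondrially encoded mRNAs themselves were all negative with pairs (median log2 fold change -0.32), 10 of them at an unadjusted p under 0.05, where 4.43% of all genes were lower. Of these mRNAs, edgeR and DESeq2 with pairs called 1 lower and limma-voom 3. Over all genes, edgeR, DESeq2 and limma-voom with pairs called 0.238%, 0.182% and 0.301% lower. The edgeR call was MT-ND1 (-0.52, adjusted p = 0.0385). Of 7 genes typical of THP-1 and its origin, all tested, MPO (myeloperoxidase) fell with pairs by all 3 tools, beside those shares, and 0 rose. MPO had 4.86, 5.78 and 4.07 TPM in PTX4-OE against 6.61, 8.39 and 5.82 TPM in EV, with a paired log2 fold change of -0.53 ± 0.080 (SE, adjusted p = 0.00798 by edgeR). The summed level of the 12 monocyte markers was 78.5 to 142.9 TPM in PTX4-OE and 93.3 to 127.4 TPM in EV, and 1 of the 9 tested, CSF1R, fell with pairs by edgeR (log2 fold change -0.29, adjusted p = 0.0385), where 0.238% of all genes were called lower. With pairs limma-voom also called 1 of these markers lower and DESeq2 called 0. That of the 12 dendritic cell markers was 73.3 to 110.3 TPM in PTX4-OE and 77.4 to 99.7 TPM in EV, mostly FSCN1 and BATF3, and 0 of 5 tested passed edgeR, DESeq2 or limma-voom with pairs, with 1 at an unadjusted p under 0.05. That of the 12 macrophage markers was 125.9 to 164.2 TPM in PTX4-OE and 110.0 to 168.1 TPM in EV, mostly CD68, and 0 of 6 tested passed any of these tools, with 1 at an unadjusted p under 0.05. The part of these cells and transcripts in the CD209 result was not tested. In bulk RNA, fewer cells that express a gene and less RNA per cell cannot be told apart.

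An unnamed protein-coding gene, ENSG00000288669, shares 2010 exonic bases with CD209 on the same strand. It had 21.9, 6.83 and 11.0 counts in PTX4-OE and 17.4, 0 and 8.95 counts in EV, under 1% of the CD209 counts, so little of the signal at the locus was assigned to it. The genes whose CPM followed CD209 most closely over the 6 libraries, among 9892 genes with a mean of at least 10 CPM, were SRGN (Pearson r of log2 CPM 0.994), STXBP3 (0.993), ATG7 (0.992), NDFIP1 (0.988) and VAT1 (0.985). SRGN encodes the granule proteoglycan serglycin and had 1012, 851.4 and 856.2 CPM in PTX4-OE against 1079, 952.9 and 938.8 CPM in EV. None of the 5 passed the paired edgeR test (log2 fold changes -0.16 to -0.07, adjusted p 0.339 to 0.711). These correlations share library depth and scaling, were picked as the highest, and are a description.

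CLEC11A encodes stem cell growth factor, a secreted lectin that acts on blood progenitors and bone. It had 643.9, 603.3 and 495.5 TPM in PTX4-OE (580.9 ± 76.7, SD, n = 3), against 630.2, 620.1 and 495.0 TPM in EV (581.8 ± 75.3, SD, n = 3). Replicate 3 was the lowest of both groups, and the groups overlapped almost completely. It ranked 186 to 201 among all genes by TPM in PTX4-OE and 182 to 207 in EV, where CD209 ranked 2490 to 3373 in PTX4-OE and 2071 to 2561 in EV. The paired log2 fold change was -0.03 ± 0.051 (SE), with a 95% interval of -0.14 to 0.08 and an adjusted p of 0.911 by edgeR. Without the block the interval was -0.43 to 0.37. The ratio of CLEC11A to CD209 in TPM was 12.1, 17.6 and 13.3 in PTX4-OE replicates 1, 2 and 3 and 10.2, 13.5 and 10.9 in EV replicates 1, 2 and 3, higher in PTX4-OE within every pair.

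CLEC2D (LLT1, the ligand of the NK cell receptor KLRB1) lies on chromosome 12 at 9664969 to 9699553, plus strand. It had 101, 244 and 367 expected counts in PTX4-OE, or 1.16, 2.78 and 3.55 TPM (2.50 ± 1.22, SD, n = 3). In EV it had 142, 203 and 359 expected counts, or 2.16, 2.69 and 3.90 TPM (2.92 ± 0.892, SD, n = 3). The replicates of a group differed far more than the groups: the highest library was 3.34 times the lowest by CPM in PTX4-OE and 2.36 times in EV. In both groups replicate 3 was highest and replicate 1 lowest, an order unlike that of CD209. The ratio of PTX4-OE to EV was 0.626, 1.13 and 0.886 in pairs 1, 2 and 3, so the pairs did not share a direction. The paired log2 fold change was -0.18 ± 0.137 (SE, 95% interval -0.47 to 0.11, adjusted p = 0.763 by edgeR). It was -0.01 without pair 1 and -0.37 without pair 2.

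CLEC2D was also unusual in the length behind its TPM. The ratio of counts to TPM, which follows the effective length used by the authors, spanned 1.39-fold across libraries for CLEC2D, at the 98.0 percentile of 12299 genes whose median span was 1.02-fold. For CD209 the span was 1.04-fold and for CLEC11A 1.01-fold. Its TPM therefore mixes a change in length with a change in counts. A processed pseudogene, NPM1P7, shares 844 exonic bases with CLEC2D on the same strand and had 26.3, 30.6 and 45.8 counts in PTX4-OE against 17.5, 38.2 and 105 in EV, so reads of the pair cannot be fully separated. Over the 6 libraries the Pearson r of log2 CPM was -0.67 for CD209 with CLEC2D, -0.77 for CLEC11A with CLEC2D and 0.56 for CD209 with CLEC11A, as a description of libraries that share scaling and pairs.

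CLEC12A (chromosome 12, 9951316 to 9995694, plus strand) encodes an inhibitory receptor of myeloid cells that is widely present on acute myeloid leukaemia blasts. It had 18, 8 and 11 counts in PTX4-OE, or 0.54, 0.29 and 0.40 TPM, against 16, 14 and 16 counts in EV, or 0.65, 0.47 and 0.53 TPM. The CPM was lower in PTX4-OE in all 3 pairs, at ratios of 0.990, 0.538 and 0.596, but the groups overlapped. It was the least abundant lectin to enter the test, and its paired log2 fold change of -0.51 ± 0.419 (SE, 95% interval -1.40 to 0.38) did not pass (adjusted p = 0.792 by edgeR). At this depth the interval of the fold, 0.379 to 1.30, does not tell a large loss from none.

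**Figure D3:**
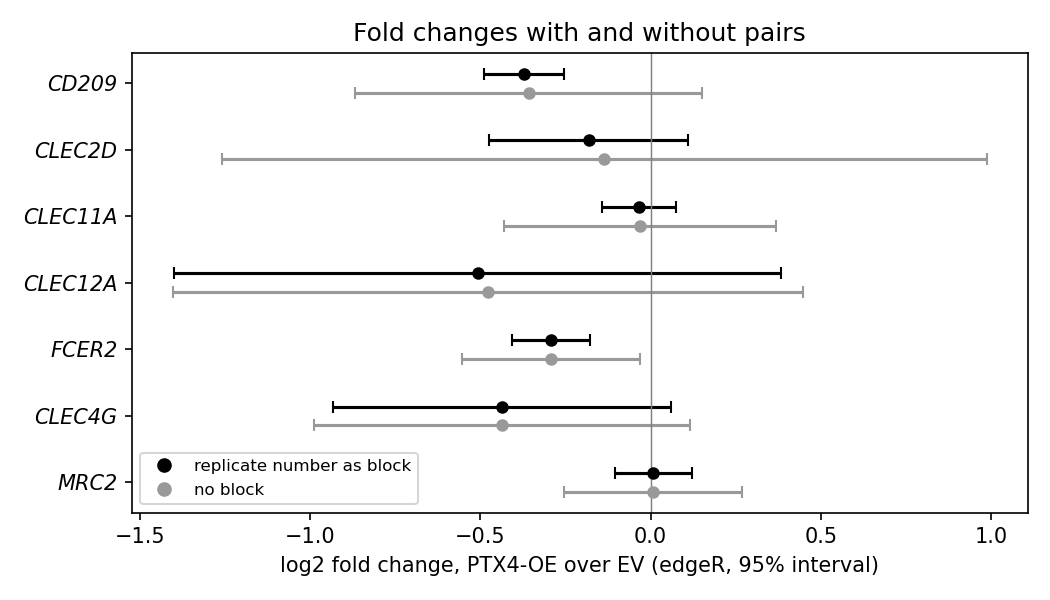
Log2 fold change of PTX4-OE over EV with its 95% interval for the 4 tested lectins and 3 related genes (FCER2, CLEC4G and MRC2), in black with and in grey without the replicate block. With the block the interval of CD209 (-0.49 to -0.25) does not reach 0, and those of CLEC11A, CLEC2D and CLEC12A do.

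The remaining 6 lectins did not pass the filter on low counts, and no test was made on them with it. CLEC5A (MDL-1, chromosome 7, 141927357 to 141947007, minus strand) is an activating receptor that signals through DAP12 and binds dengue virus. It had 0, 1 and 1 counts in PTX4-OE against 6, 3 and 8 counts in EV, and the groups did not overlap. That held for 2.05% of genes tested with PTX4-OE lower, all with higher counts than the filter asks, and CLEC5A is not among them. The ratio of the summed counts, scaled for library size, was 0.105 (exact 95% binomial interval 0.0118 to 0.443, counting error only). Without the filter the paired edgeR fit gave an unadjusted p of 0.0315 and an adjusted p of 0.685, so the difference did not pass. All its values were at or below 0.12 TPM.

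CLEC4A (DCIR, an inhibitory receptor of dendritic cells and monocytes, chromosome 12, 8123617 to 8138607, plus strand) had 0.14, 4.71 and 9.06 expected counts in PTX4-OE and 9.07, 2.60 and 6.26 in EV. Its levels of 0.01, 0.43 and 0.57 TPM in PTX4-OE and 0.45, 0.20 and 0.63 TPM in EV overlapped and had no common order. A long noncoding RNA on the same strand, ENSG00000284697, shares 893 exonic bases with it and had 1.94 to 8.86 counts in PTX4-OE and 3.93 to 8.74 in EV, so its few reads are not certain.

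Receptors known from microbe recognition by macrophages, and CLEC2B, were at or near 0. CLEC7A (Dectin-1, the receptor of fungal beta-glucan, chromosome 12, 10116777 to 10130258, minus strand) had 2, 0 and 1 counts in PTX4-OE and 2, 0 and 0 in EV. MRC1 (the macrophage mannose receptor, chromosome 10, 17809348 to 17911164, plus strand) had 1, 2 and 0 counts in PTX4-OE and 2, 1 and 0 in EV. The IL-4-induced partner of CD209 thus had at most 2 counts in any library. CLEC2B (AICL, a ligand of the NK receptor KLRF1, chromosome 12, 9852369 to 9869386, minus strand) had 0, 1 and 0 counts in PTX4-OE and 0, 0 and 1 in EV. CLEC4E (Mincle, the receptor of mycobacterial cord factor, chromosome 12, 8533305 to 8540905, minus strand) had 0 counts in all 6 libraries, which allows up to 3 counts, or 0.0768 to 0.0963 CPM in PTX4-OE and 0.0886 to 0.102 CPM in EV. These limits cover counting error only. No direction can be read for these 4 genes.

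By level, the order per length was CLEC11A, CD209, CLEC2D, then CLEC12A and CLEC4A, and after them CLEC5A, CLEC7A, MRC1 and CLEC2B, all at 0.12 TPM or less and with no common order in the 2 groups, and CLEC4E at 0. CLEC11A, CD209 and CLEC2D did not overlap each other in any library. CLEC12A and CLEC4A overlapped, as did CLEC5A, CLEC7A, MRC1 and CLEC2B in PTX4-OE. The median paired log2 fold change of the 4 tested lectins was -0.28, beside 0.01 over all genes tested. All 4 were negative, as were 8478 of the 17625 genes tested, but only CD209 had an interval away from 0.

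CD209 stands in a cluster of lectin genes on chromosome 19, and its neighbours were read as a group. Of 26 annotated genes that start within 150 kb of it, 12 were tested and 1, FCER2, fell with pairs, where 0.238% of all genes were called lower. FCER2 encodes CD23, the low-affinity receptor of IgE and itself a C-type lectin, and starts 45.4 kb from CD209. It had 120.1, 101.7 and 103.2 CPM in PTX4-OE (108.3 ± 10.2, SD, n = 3), against 136.7, 121.3 and 139.6 CPM in EV (132.5 ± 9.83, SD, n = 3). The groups did not overlap in CPM, which held for 2.05% of genes tested with PTX4-OE lower. They did overlap in TPM, where FCER2 had 127.1, 107.8 and 116.9 in PTX4-OE and 142.7, 126.1 and 153.4 in EV. Its paired log2 fold change was -0.29 ± 0.054 (SE, fold 0.816, adjusted p = 0.0323 by edgeR), and lower in 3 of 3 pairs. Without the block it was -0.29 ± 0.111 (SE) with an adjusted p of 1.0, and without pair 2 the paired value was -0.31 with an adjusted p of 0.138. The paired limma fits on log2(TPM + 1) and log2(TPM + 0.1) did not call it either (adjusted p 0.428 and 0.439).

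CLEC4G, 13.7 kb from CD209 and encoding LSECtin of liver sinusoids, had 1.46, 1.87 and 1.87 TPM in PTX4-OE against 2.00, 2.48 and 2.39 TPM in EV. Its groups did not overlap, which in CPM held for 2.05% of genes tested with PTX4-OE lower. Its paired log2 fold change of -0.44 ± 0.233 (SE) did not pass (adjusted p = 0.629 by edgeR). MCEMP1, picked among the other tested neighbours after their values were seen, is a membrane protein of mast cells and monocytes that had 82.6, 68.5 and 73.5 TPM in PTX4-OE and 87.7, 76.6 and 88.8 TPM in EV, with a paired log2 fold change of -0.20 ± 0.055 (SE, adjusted p = 0.197 by edgeR). Around the lectins of chromosome 12, 9 tested neighbours of CLEC4A, 2 each of CLEC4E, CLEC2B and CLEC2D and 1 each of CLEC12A and CLEC7A included 0 called genes in the edgeR fits with or without pairs.

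**Figure D4:**
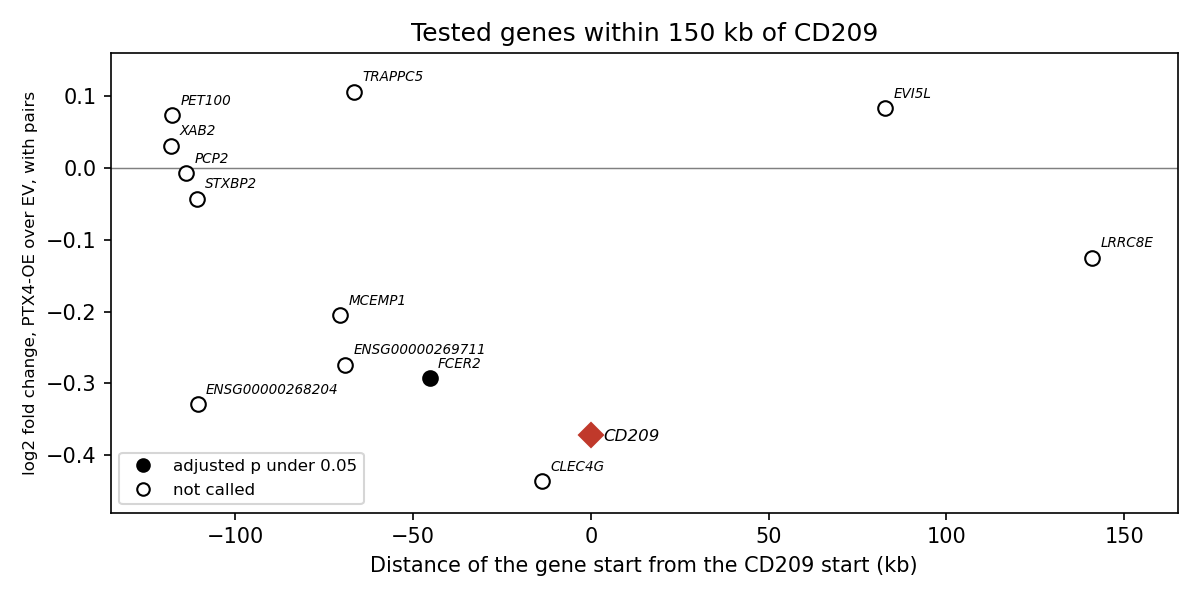
Paired log2 fold change of CD209 (diamond) and the 12 tested genes within 150 kb of CD209, against the distance of their start from that of CD209 in kb. CD209 (-0.37) and FCER2 (-0.29) are the 2 that passed the paired test, and CLEC4G (-0.44) did not pass; filled symbols passed.

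Other genes with a C-type lectin domain were sparse in these cells. Of 75 listed, 28 were at 0 in all libraries, 10 had at least 1 TPM in every library and 20 were tested. With pairs 1 fell (FCER2) and 0 rose in edgeR, DESeq2 and limma-voom, which called 0.238%, 0.182% and 0.301% of all genes lower. The median paired log2 fold change was -0.05. At an unadjusted p under 0.05, 3 were lower and 1 was higher, where 4.43% of all genes were lower and 4.36% higher. PRG2, the eosinophil major basic protein, had 5.52, 1.96 and 0.87 TPM in PTX4-OE against 7.85, 4.30 and 1.93 TPM in EV, with a paired log2 fold change of -0.87 ± 0.184 (SE) that missed the threshold (adjusted p = 0.0720 by edgeR, against 0.000126 with no low-count filter and 0.010 without pair 3). THBD, the thrombin receptor thrombomodulin, was at -0.23 ± 0.061 (SE, adjusted p = 0.176, against 0.00251 with no low-count filter and 8.62e-05 without pair 3). MRC2, the collagen-binding relative of MRC1 and chosen after its values were seen, was abundant at 150.1, 144.9 and 175.8 TPM in PTX4-OE and 154.9, 133.5 and 173.0 TPM in EV. Its paired log2 fold change was 0.01 ± 0.053 (SE, adjusted p = 0.980).

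The signalling chain behind the lectin receptors did not pass the test in either direction. Of 30 listed genes such as SYK and CARD9, 28 were tested and 0 were called by edgeR, DESeq2 or limma-voom with pairs, with 2 lower and 0 higher at an unadjusted p under 0.05 (4.43% and 4.36% of all genes) and a median paired log2 fold change of 0.01. SYK, the kinase that reads the tyrosine motifs of lectin receptors and their adaptors, had 22.8, 20.9 and 22.1 TPM in PTX4-OE and 20.8, 21.0 and 21.3 TPM in EV. FCER1G, the adaptor of Mincle and other activating receptors, had 3.11, 2.52 and 3.20 TPM in PTX4-OE and 4.05, 5.38 and 5.78 TPM in EV. Its groups did not overlap, which in CPM held for 2.05% of genes tested with PTX4-OE lower. Its paired log2 fold change was -0.78 ± 0.313 (SE, adjusted p = 0.475 by edgeR). PRKCD, the kinase that acts on CARD9, was at -0.14 ± 0.051 (SE, adjusted p = 0.400).

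Among 18 partners and ligands of the lectins, 15 were tested and 0 were called by the paired edgeR fit, with 3 lower and 1 higher at an unadjusted p under 0.05, where 4.43% of all genes were lower and 4.36% higher, and a median paired log2 fold change of -0.07. DESeq2 and limma-voom with pairs called 1 of them lower, where they called 0.182% and 0.301% of all genes lower. It was ITGB2, the beta chain of the leukocyte integrins, with 150.4, 115.5 and 108.7 TPM in PTX4-OE and 162.9, 136.2 and 135.5 TPM in EV. Its paired log2 fold change was -0.26 ± 0.053 (SE), with an adjusted p of 0.0601 by edgeR, 0.00227 by DESeq2 and 0.0281 by limma-voom. TLR2 was at -0.17 ± 0.050 (SE, adjusted p = 0.255 by edgeR).

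Candidate regulators were mostly measurable, 18 of 23 with at least 1 TPM in every library, and those tested were not called. Whether they act on CD209 in these cells was not tested. Of 23 genes of the IL-4 pathway and of dendritic cell or macrophage regulators, 22 were tested and 0 passed edgeR, DESeq2 or limma-voom with pairs, with 3 lower and 0 higher at an unadjusted p under 0.05 (4.43% and 4.36% of all genes) and a median of -0.02. The PU.1 gene SPI1 had 279.5, 252.5 and 278.7 TPM in PTX4-OE and 277.6, 263.1 and 287.3 TPM in EV (paired log2 fold change -0.06, adjusted p = 0.785). IL4R had 6.26, 5.41 and 6.09 TPM in PTX4-OE and 6.02, 5.70 and 5.68 TPM in EV. KLF4 (-0.22 ± 0.074, SE) and VDR (-0.18 ± 0.068), transcription factors of monocytes and macrophages, had paired adjusted p of 0.337 and 0.435 by edgeR. Of 21 genes listed as induced by IL-4 with CD209 or MRC1, 5 were at 0 in all libraries and 6 were tested. Whether IL-4 induces each of them was not tested. FCER2 was the 1 that fell with pairs by all 3 tools, where edgeR, DESeq2 and limma-voom called 0.238%, 0.182% and 0.301% of all genes lower.

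The sugar side of the system showed no called gene by edgeR, DESeq2 or limma-voom with pairs. Of 12 galectins 7 were tested, with 0 at an unadjusted p under 0.05 and a median paired log2 fold change of -0.04. Of 29 matched enzymes that build fucosylated or high-mannose glycans 26 were tested, with 2 lower and 2 higher at an unadjusted p under 0.05 (4.43% and 4.36% of all genes) and a median of -0.01. The mannosidase MAN2A1 (0.17 ± 0.063, SE), the core fucosyltransferase FUT8 (0.14 ± 0.054) and FUT7, which makes sialyl Lewis X (-0.15 ± 0.058), had paired adjusted p of 0.405, 0.454 and 0.474 by edgeR. Without pair 3 the value of MAN2A1 was 0.07. Without pairs edgeR, DESeq2 and limma-voom called 0 genes of any of these lists, with 0 or 1 of each at an unadjusted p under 0.05 in edgeR.

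**Figure D5:**
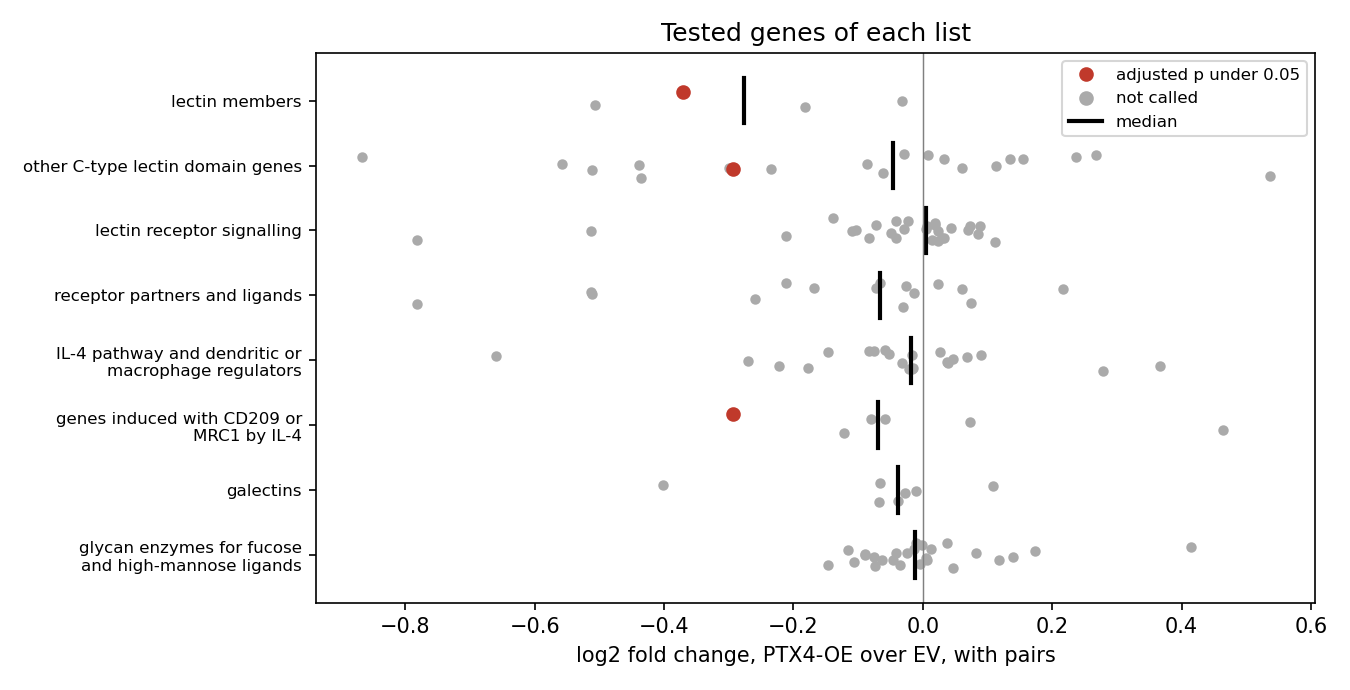
Paired log2 fold change of PTX4-OE over EV for each tested gene of the lectin lists, with points for genes red ones having passed the paired test, and a bar at each list's median. The medians run from -0.28 for the 4 lectins to 0.01 for the signalling genes, and CD209 and FCER2 (in 2 lists) are the red points.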

How the data were processed

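The 6 libraries are 3 PTX4-OE and 3 EV samples of THP-1 cells. Per the submitters' processing notes, FastQC 0.11.5, STAR and featureCounts were used with build GRCh38. The settings, the annotation release and whether counting used strand are not given in the sources used here. Values of overlapping genes are therefore uncertain. The authors deposited expected counts per Ensembl gene without normalization, of which 7.94% are not whole (beyond 0.005), and deposited TPM, which correct for length and sum to 1000000 in each library. FPKM were not used.

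Of 78686 identifiers, 34 pairs listed at both X and Y were summed. Names and coordinates came from GENCODE release 44, which holds 61429 of the identifiers. The 10 lectins and all gene lists were chosen with earlier results of these data known. The genes named are the lectins, list members called in either edgeR fit, then up to 3 a list with the smallest paired p under 0.05, and the 5 genes most correlated with CD209. Tested neighbours are given by counts, and others are named as chosen after their values were seen or as background examples. A gene that the rule names is not reported here.

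Expected counts were rounded and tested with edgeR 4.0.16 (R 4.3.3): filterByExpr, TMM, quasi-likelihood F test, Benjamini-Hochberg over 17625 genes, call at 0.05. SE were taken from the fold change and F statistic and rest on moderated variances. The design had no block. Same-numbered libraries deviated from their group means together (correlations 0.632, 0.130 and 0.699 for numbers 1, 2 and 3, against a limit of 0.1, and -0.643 to 0.117 for unlike numbers), so the numbers, which come from the labels, were taken to pair the libraries and blocked values are printed. Without the block the p-values measure the spread between these cultures, and with it only the spread that remains within pairs. No 2 libraries agreed within sampling noise (smallest chi-square per degree of freedom 6.53). The fits were tested on simulated data. Alternatives were DESeq2 1.42.0, limma 3.58.1 (voom, and log2 TPM with pseudocounts of 1 and 0.1, for genes reaching 1 TPM), RLE scaling, no filter, no mitochondrial genes and libraries left out. Python 3.11.15, pandas 2.3.3 and scipy 1.17.1 were used.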

Additional observations from a re-analysis of the deposited data

How the results depend on the processing

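The number of lectins called lower was 0 without the replicate block under every setting and 1 (CD209) with the replicate block, with it and no low-count filter, RLE size factors or no mitochondrial genes, and with DESeq2 or limma-voom and the block. It was 0 with limma on log2 TPM. Leaving out a pair gave 0 to 1, with CD209 lost without pair 2. No setting called a lectin higher. CD209 was negative in all 24 alternatives, from -0.43 to -0.29 in 11 with the block, of which 8 called it, and from -0.59 to -0.20 in 13 without. Over all genes, 0 were called lower and 1 higher without the block, against 42 and 5 with it. Genes called lower numbered 1 with no filter and 190 with no filter and the block, 42 with RLE and the block, 41 without mitochondrial genes and the block, 2 with DESeq2, 32 with DESeq2 and the block, 53 with limma-voom and the block, 1 with log2(TPM + 1) and the block, and 15 to 167 with the block over pairs left out (58 without pair 1, 0 with a library left out and no block). Genes called higher numbered 106, 5, 5, 6 and 14 with the block and no filter, RLE, no mitochondrial genes, DESeq2 and limma-voom, 0 with limma-voom alone, 2 with log2(TPM + 1) with or without the block, and 8 to 41 with the block over pairs left out (30 without pair 1). The causes were not tested. With 1 library left out and no block, CLEC2D ran from -0.471 to 0.238 (0.238 without PTX4-OE replicate 1, 0.229 without EV replicate 3), CLEC11A from -0.16 to 0.091 (0.091 without PTX4-OE replicate 3, 0.031 and 0.030 without EV replicates 1 and 2), THBD ran from -0.569 to 0.04 (0.04 without EV replicate 1) and KLF4 from -0.434 to 0.077 (0.077 without EV replicate 3). Depth limits CLEC12A and the 6 untested lectins, whose counts stayed at 18 or fewer.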
